A study of Homo sapiens with 4 samples.

Results

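Gene deserts are long stretches of the genome that hold no gene, and 8980 of the 150917 accessible regions found by ATAC-seq in LNCaP cells and in their enzalutamide-resistant derivative lay in them. A window reaching 250 bp to each side was drawn around each summit, the base at which a peak of open chromatin is highest, and windows that overlapped within or between libraries were joined. A joined region counted as a desert region when its strongest summit was outside every RefSeq gene, more than 100 kb from the nearest end of a protein-coding gene and more than 20 kb from the end of any other gene. Summit strength served only to place a region, and differences between the cell types played no part in that choice. The median desert region was 268 kb from a protein-coding gene end, with an interquartile range of 161 to 495 kb.

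LNCaP is a human prostate cancer cell line of luminal type, and enzalutamide is an antiandrogen drug used against prostate cancer. The labels give 2 libraries of LNCaP cells with the genotype WT and no treatment, and 2 libraries of LNCaP-resistance cells, described as resistance cells treated with enzalutamide. The labels give the same serum-containing RPMI-1640 medium for both. By the methods, however, the resistant sublines were made from cells first adapted to charcoal-stripped serum, which is depleted of steroid hormones, so that adaptation, the drug and resistance cannot be told apart. The resistant cells are a single subline selected stepwise in rising drug concentrations, so its resistance and its own history of selection cannot be told apart. The methods speak in general of independent replicates, in a number that the 2 libraries of a cell type do not reach. No source used here says whether these libraries came from separate cultures, so the spread between them may be technical. The comparison asks which open chromatin far from genes differs between the parental and the resistant cells.

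Open chromatin outside genes and promoters is largely made of enhancers, short stretches bound by transcription factors that act on promoters over long distances, and of sites bound by CTCF, which organises chromatin loops. Gene deserts often flank genes for developmental transcription factors and for cell adhesion proteins, and some hold many enhancers of 1 such gene. Accessibility of distal elements is usually more specific to a cell state than that of promoters.

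Each list gives 1 score per summit, a −log10 p-value or q-value, so strength was expressed as the percentile of a summit within its own library. The lists held 117131 and 107236 summits on the main chromosomes in LNCaP, and 70735 and 45570 in the resistant cells. They hold no read counts, and the depth behind each list is unknown. All 9 luminal prostate genes examined, KLK3 and KLK2 among them, had a summit within 3 kb of a gene end in every library, but so did 4 of 6 genes of other cell types (PTPRC and COL3A1 had none), so such summits do not separate cell types.

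Desert summits made up a smaller share of the resistant lists and were weaker within them. The share of summits in deserts was 5.68% (95% Wilson interval 5.55 to 5.82) and 5.43% (5.30 to 5.57) in LNCaP replicates 1 and 2, and 4.49% (4.34 to 4.65) and 3.68% (3.51 to 3.85) in resistant replicates 1 and 2. Both resistant libraries lay below both LNCaP libraries. Averaged by cell type, LNCaP stood at 5.56% ± 0.177 (SD, n = 2) and resistant cells at 4.08% ± 0.575 (SD, n = 2), a difference of -1.47 percentage points, which is larger than the pooled SD of 0.426 (two-sided exact permutation p = 0.333). With 2 libraries against 2, 0.333 is the smallest p that this test can give, so no difference between the cell types can pass 0.05. Between libraries of the same replicate number the differences were -1.19 and -1.76 points.

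The resistant lists were also shorter, and list length moved with the desert share. When only the 45618 highest-scoring summits of each list were used, the share was 4.16% and 4.15% in LNCaP and 3.53% and 3.68% in the resistant cells. The groups still did not overlap, and the difference shrank to -0.549 points.

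The median percentile of desert summits was 42.5 and 43.4 in LNCaP and 36.1 and 30.3 in the resistant libraries. Summits elsewhere had medians between 50.7 and 51.7 in all 4 libraries. Desert minus other medians were -8.19 and -8.33 points in LNCaP and -15.02 and -20.5 points in the resistant cells, a difference between the cell types of -9.50 points against a pooled SD of 2.75 (two-sided exact permutation p = 0.333). Among desert summits, 5.48% and 5.15% were within the top 10% of their LNCaP list, against 2.58% and 1.55% in the resistant lists. Elsewhere this share was 10.3% in each of the 4 lists.

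**Figure D1:**
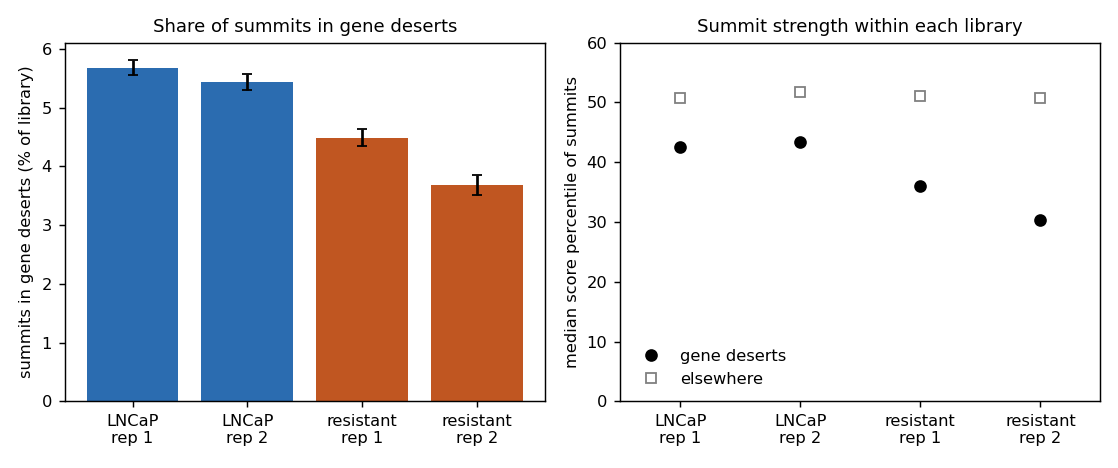
Left, the percent of each library's summits that lie in gene deserts (bars, with 95% Wilson intervals that cover counting error only); right, the median score percentile of summits in deserts (filled circles) and elsewhere (open squares) in the same library. Desert shares were 5.68% and 5.43% in LNCaP against 4.49% and 3.68% in resistant cells, and desert medians were 42.5 and 43.4 against 36.1 and 30.3, while the medians elsewhere stayed between 50.7 and 51.7.

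Desert regions were more often open in LNCaP alone than regions in general, and less often open in all libraries. Of the 8980 desert regions, 951 (10.6%) had a summit in all 4 libraries, against 21.1% of all regions. A further 2905 (32.3%) were LNCaP-specific (both LNCaP lists had a summit there, neither resistant list did), against 27.5% of all regions. Only 362 (4.03%) were resistant-specific, the reverse pattern, against 3.84% of all regions, so that class was about as common in deserts as over all regions. The remaining 4762 had a summit in 1 library of a cell type but not the other, and 3652 of them rested on a single library. A summit was present at 72.8% and 63.6% of desert regions in LNCaP and at 34.7% and 18.5% in the resistant libraries. Outside deserts these shares were 75.5% and 69.0% in LNCaP and 46.3% and 30.4% in the resistant libraries, whose lists are shorter.

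The balance of the specific classes depended on list length. Over the full lists there were 8.02 LNCaP-specific desert regions for each resistant-specific one, and 7.11 among the other regions. With 45618 summits per library, 809 desert regions were LNCaP-specific and 528 resistant-specific, a ratio of 1.53, against 1.13 elsewhere. At that equal length the shared class held 13.2% of desert regions and 27.4% of the others, and the resistant-specific class 14.7% and 14.9%.

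Fewer LNCaP desert regions than other LNCaP regions were found again in resistant cells. Both LNCaP libraries had a summit in 4530 desert regions. Of these, 34.5% had a summit in resistant replicate 1, 22.4% in resistant replicate 2 and 20.99% in both. For the 81421 other regions of both LNCaP libraries the shares were 51.2%, 39.3% and 37.9%. In the reverse direction, 65.3% of the 1457 desert regions of both resistant libraries were found in both LNCaP libraries, against 77.7% of the other regions.

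Desert regions were weaker to begin with, at a median LNCaP percentile of 51.1 against 60.2, and weak regions are found again less often everywhere. The shares were therefore compared within 10 equal bins of mean LNCaP percentile and averaged with the weights of the desert regions. At matched strength the gap between desert and other regions was -11.5 percentage points in resistant replicate 1 and -11.3 in resistant replicate 2 (mean -11.4 ± 0.106, SD, n = 2). Both values rest on the same LNCaP regions and bins, so this SD leaves out variation between the LNCaP libraries. Without either LNCaP library the mean gap was -9.95. Desert regions were below the others in 10 of 10 bins for resistant replicate 1 and in 9 of 10 for resistant replicate 2. In the top bin, 64.6% of 288 desert regions were found in resistant replicate 1 (95% Wilson interval 58.9 to 69.9) against 84.5% of the other regions, and 49.3% (43.6 to 55.1) against 77.7% in resistant replicate 2.

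The other regions include promoters, which are found in both cell types most often. Against regions outside genes and between 20 and 100 kb from a protein-coding gene end, the gap was smaller, -8.10 and -7.14 points (mean -7.62). With equal list lengths it was -19.6 and -19.8 points against all other regions, and -12.4 and -12.2 points against the regions at 20 to 100 kb. In the reverse direction, from resistant cells to LNCaP, the gap was -5.67 and -6.32 points with the full lists and -5.26 and -5.96 points at equal lengths.

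**Figure D2:**
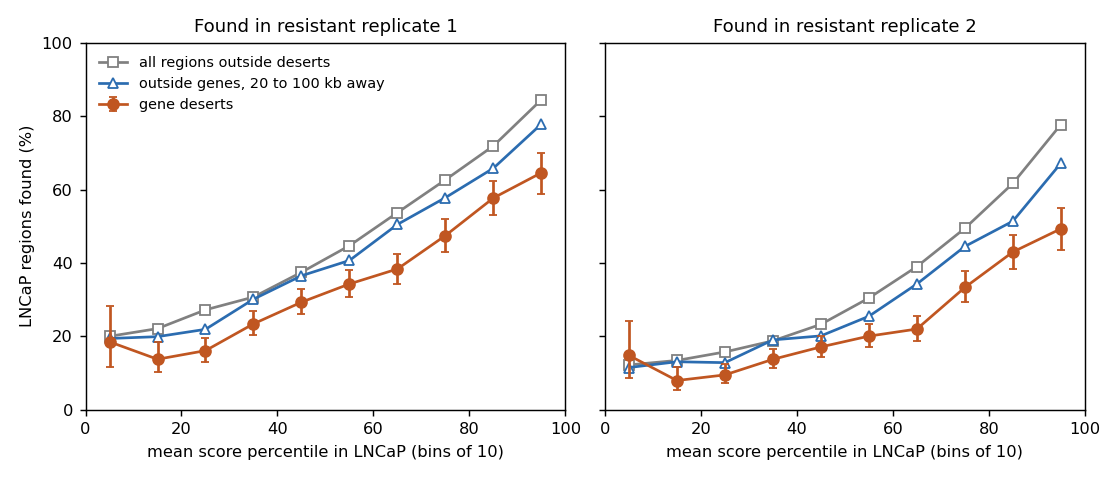
Percent of the regions of both LNCaP libraries that had a summit in resistant replicate 1 (left) and in resistant replicate 2 (right), by mean score percentile in LNCaP in bins of 10, for gene deserts (filled circles, 95% Wilson intervals), regions outside genes at 20 to 100 kb (triangles) and all regions outside deserts (squares). In the top bin 64.6% and 49.3% of desert regions were found, against 84.5% and 77.7% of all other regions.

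The gap was larger between cell types than between replicates. Each library's regions were looked up in each of the other 3, at matched percentile. Between replicates the gap between desert and other regions was -2.07 and -0.388 points in LNCaP and -1.36 and 0.531 points in the resistant cells. With lists of equal length all 4 replicate gaps were negative, at -2.66 and -1.91 points in LNCaP and -1.62 and -1.75 in the resistant cells. From an LNCaP library to a resistant library it lay between -10.5 and -9.51 points in all 4 pairs. From a resistant library to an LNCaP library it lay between -6.01 and -4.33 points. The 3 ranges, all from the full lists, do not overlap, but the pairs share libraries and were not tested. Against the regions at 20 to 100 kb alone, the 2 directions between cell types lay closer together. The gap was then between -8.03 and -6.28 points from LNCaP to resistant libraries, and between -5.60 and -3.95 from resistant to LNCaP libraries.

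**Figure D3:**
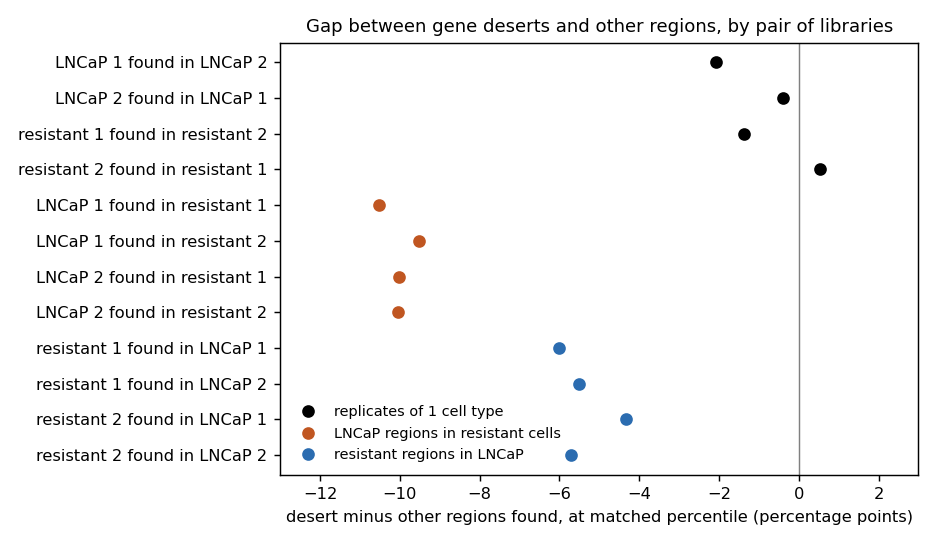
Difference, in percentage points, between the share of desert regions and the share of other regions of 1 library that were found in another, at matched score percentile, 1 point for each ordered pair of libraries. The other regions include promoters. Replicate pairs (black) lie between -2.07 and 0.531, LNCaP regions in resistant libraries (orange) between -10.5 and -9.51, and resistant regions in LNCaP libraries (blue) between -6.01 and -4.33.

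The strongest desert regions showed the same contrast. Of 365 desert regions within the top 10% of LNCaP replicate 1, 0 lacked a summit in LNCaP replicate 2, which allows an absent share of up to 0.822% (3 counts of 365). Of the same 365, 131 (35.9%) lacked one in resistant replicate 1 and 180 (49.3%) in resistant replicate 2. For other regions within the same top 10%, promoters included, the absent shares were 17.2% and 24.4%. Strength was not matched further within the top 10%. In the top bin of mean LNCaP percentile, 77.9% and 67.2% of regions at 20 to 100 kb were found in resistant replicates 1 and 2. For desert regions of that bin it was 64.6% and 49.3%. Of 300 top desert regions of LNCaP replicate 2, 0 lacked a summit in LNCaP replicate 1, 35.7% in resistant replicate 1 and 54.3% in resistant replicate 2. For other regions within the top 10% of LNCaP replicate 2, promoters included, the absent shares were 0.326%, 16.2% and 23.7% in the same order. In the opposite direction, resistant replicate 1 had 82 desert regions within its top 10%. None of these 82 lacked a summit in resistant replicate 2 (an absent share of up to 3.66%), 9 (10.98%) lacked one in LNCaP replicate 1 and 11 (13.4%) in LNCaP replicate 2. For other regions within the top 10% of resistant replicate 1, promoters included, the shares were 3.004% and 3.247%.

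Recovery in resistant cells was lower with distance from genes up to 100 kb and then level. Within 3 kb of a protein-coding gene end, 77.4% of regions of both LNCaP libraries had a summit in both resistant libraries. The share was 37.6% at 3 to 20 kb, 30.2% at 20 to 100 kb and 34.1% inside genes. Regions more than 100 kb from protein-coding genes but within 20 kb of another kind of gene stood at 24.9%. Within the deserts it was 20.2% at 100 to 200 kb, 20.8% at 200 to 500 kb and 20.7% at 500 kb to 1 Mb. Beyond 1 Mb it was 28.4% of 264 regions, and that bin broke the order. Weighted to the strengths of desert regions, the share was 58.6% within 3 kb, 34.4% at 3 to 20 kb, 29.7% inside genes, 28.1% at 20 to 100 kb and between 19.7% and 21.5% from 100 kb to 1 Mb. Regions more than 100 kb from protein-coding genes but near another kind of gene, the closest in kind to the deserts, stood at 24.05%. Beyond 1 Mb it was 30.2%, now above the values inside genes and at 20 to 100 kb. These shares over regions carry no test.

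**Figure D4:**
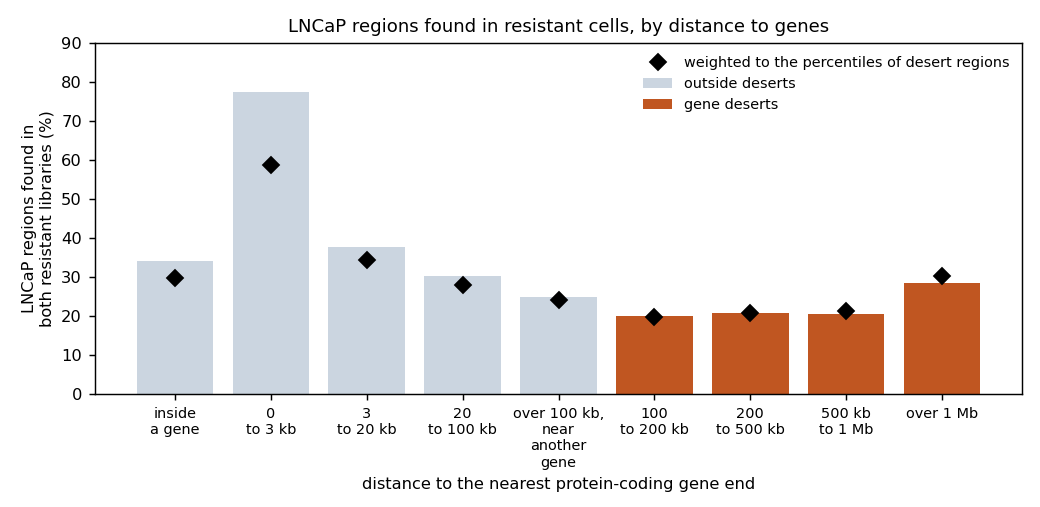
Percent of the regions of both LNCaP libraries that had a summit in both resistant libraries, by distance of the strongest summit to the nearest protein-coding gene end (grey bars, outside deserts; orange bars, gene deserts), with diamonds giving the share after weighting to the percentiles of desert regions. The share was 77.4% within 3 kb, 30.2% at 20 to 100 kb, between 20.2% and 20.8% from 100 kb to 1 Mb, and 28.4% beyond 1 Mb.

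Stretches that meet the distance rule covered 605 Mb, 19.6% of the span of the chromosomes, unsequenced stretches included, and 61.3% of the 4164 stretches held a region. They held 11.01 and 9.63 summits per Mb in LNCaP and 5.25 and 2.77 in the resistant libraries. The rest of the genome held 44.5, 40.9, 27.2 and 17.7 per Mb in the same order, so it was 4.04 and 4.24 times as dense as the deserts in LNCaP and 5.18 and 6.38 times in the resistant cells. These ratios follow from the desert share, whose difference between cell types shrank at equal list length, and they are from the full lists only. On 23 of 24 chromosomes a smaller share of desert than of other regions of both LNCaP libraries was found in both resistant libraries. Chromosome Y was the exception, at 7 of only 26 desert regions (26.9%) against 18.6% of its other regions. Chromosome 19, which is rich in genes and had 50 desert regions, had the lowest share, 2 of 30 regions (6.67%), against 58.5% of its other regions.

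Desert regions open in all 4 libraries more often had a lower rank in the resistant lists than shared regions in general. Both resistant percentiles lay below both LNCaP percentiles in 502 of the 951 shared desert regions (52.8%), against 41.8% of all shared regions. Both lay above in 131 (13.8%), against 17.7% of all shared regions. The median difference, resistant minus LNCaP, was -13.9 percentile points in deserts and -4.65 over all shared regions. The median percentiles of the shared desert regions were 69.6 in LNCaP and 52.5 in the resistant cells, against 77.3 and 66.9 over all shared regions. With the other shared regions weighted to the LNCaP percentiles of the desert regions, 36.0% of them lay below and 21.2% above. These percentiles move with list length. With 45618 summits per library, 190 of 475 shared desert regions lay below and 117 (24.6%) above, against 21.1% and 45.7% of the others at the same LNCaP percentiles. The median difference was then -4.60 points in deserts and 4.61 over all shared regions, so the direction over all shared regions turned with list length and the desert median stayed below it.

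The strongest desert region of all 4 libraries was at chr2:2613285-2613848 (GRCh38), between MYT1L, a transcription factor of neurons, and EIPR1, and 282 kb from MYT1L. Its percentiles were 99.8 and 99.9 in LNCaP and 99.5 and 97.8 in the resistant cells. The next was at chr3:102238240-102238775, between NFKBIZ, a nuclear regulator of NF-kB, and ZPLD1, with percentiles of 99.9 and 99.9 against 98.8 and 98.1. In both regions the LNCaP libraries were slightly above the resistant ones, with mean differences, resistant minus LNCaP, of -1.24 and -1.51 points. The region at chr7:25862120-25862636, between the neuropeptide gene NPVF and the transcription factor gene NFE2L3, had 97.5 and 98.6 in LNCaP and 99.2 and 98.5 in the resistant cells, and its groups overlapped. Those beside SPRY1, an inhibitor of growth factor signalling, and IRS2, an adaptor of the insulin receptor, had mean percentiles of 97.9 and 96.7 over the 4 libraries. The region at chr9:32136645-32137160 between LINGO2 and ACO1, the cytosolic aconitase, differed most of these 6, at 99.94 and 99.96 in LNCaP against 96.2 and 90.2.

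Strong LNCaP regions without any summit in the resistant cells were found beside genes of many kinds. The strongest was on chromosome Y at chrY:20929774-20930275, between RPS4Y2 and RBMY1B, at 99.2 and 99.6. RBMY1B belongs to a multicopy family, so the placement of reads there is uncertain. The region at chr8:65322653-65323197, between CYP7B1, an oxysterol hydroxylase, and ARMC1, stood at 99.4 and 99.2, and 3 further LNCaP-specific regions lay within 50 kb of it. The region at chr9:11064937-11065444, 452 kb from the receptor phosphatase gene PTPRD, stood at 99.5 and 99.1. The other 3 of the 6 strongest lay between PTPRU and MATN1 (chr1:30461571-30462083), beside VWC2 (chr7:49639080-49639583) and beside PIK3C3 (chr18:41338283-41338800), with mean percentiles of 99.3, 99.1 and 98.4. VWC2 encodes a secreted antagonist of bone morphogenetic proteins, and PIK3C3 the class III phosphatidylinositol kinase of autophagy.

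Resistant-specific desert regions ranked lower within their lists than LNCaP-specific ones, as elsewhere in the genome. The strongest, at chr2:207311349-207311864 between the transcription factor genes KLF7 and CREB1 and 138 kb from KLF7, stood at 95.7 and 92.1 in the resistant libraries. The region at chr3:84548589-84549099, 410 kb from the adhesion gene CADM2, stood at 97.9 and 89.7. The region at chr6:100228819-100229330, 156 kb from SIM1, a transcription factor of hypothalamic neurons, stood at 97.4 and 87.2. The next 3 were beside CDC42EP3, TOX and CNTN3, with mean percentiles of 90.2, 88.8 and 87.4. Over the class, the median of mean percentiles was 39.7 for resistant-specific, 45.0 for LNCaP-specific and 59.1 for shared desert regions. Only 4 of the 362 resistant-specific regions had a mean percentile over 90, against 99 of the 2905 LNCaP-specific ones, shares of 1.10% and 3.41%. Outside deserts these shares were 0.773% and 3.91%, and the medians 42.8 and 47.3, so the order of the specific classes was the same there.

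Among shared desert regions whose groups did not overlap, the largest differences in favour of the resistant cells were as follows. The region at chr2:209208808-209210272, 215 kb from MAP2, a microtubule protein of neurons, had percentiles of 0.447 and 7.62 in LNCaP and 73.0 and 74.5 in the resistant cells. The region at chr17:71440548-71441523, in the desert between KCNJ2 and SOX9 and 680 kb from SOX9, a transcription factor of prostate development, had 8.58 and 3.23 against 77.5 and 71.5. These differences of 69.7 and 68.6 points compare with pooled SDs of 3.67 and 4.01. Both regions were wide, 1465 and 976 bp against a median of 509 bp for desert regions. The LNCaP and resistant summits joined in them may therefore lie at separate neighbouring sites, which was not tested. The regions beside JADE1 and SERP2, 657 and 701 bp wide, were 66.1 and 60.7 points higher, with wider spreads (pooled SD 15.7 and 12.7).

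In favour of LNCaP, the region at chr5:171610569-171611159, 153 kb from FGF18, a fibroblast growth factor, had 99.4 and 99.9 in LNCaP against 26.0 and 0.629. The region at chr7:46557261-46557791, 636 kb from IGFBP3, a binding protein of insulin-like growth factors, had 98.8 and 97.4 against 21.4 and 9.58. The regions between GADD45G and DIRAS2 and between MAT2B and TENM2 differed by -81.4 and -80.9 points (pooled SD 3.699 and 1.97). The last named regions were 1020 and 973 bp wide, so they too may join separate sites. Those beside FGF18 and IGFBP3 were 591 and 531 bp wide. All 8 were chosen as the extremes of 951 regions, so their differences are a description.

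**Figure D5:**
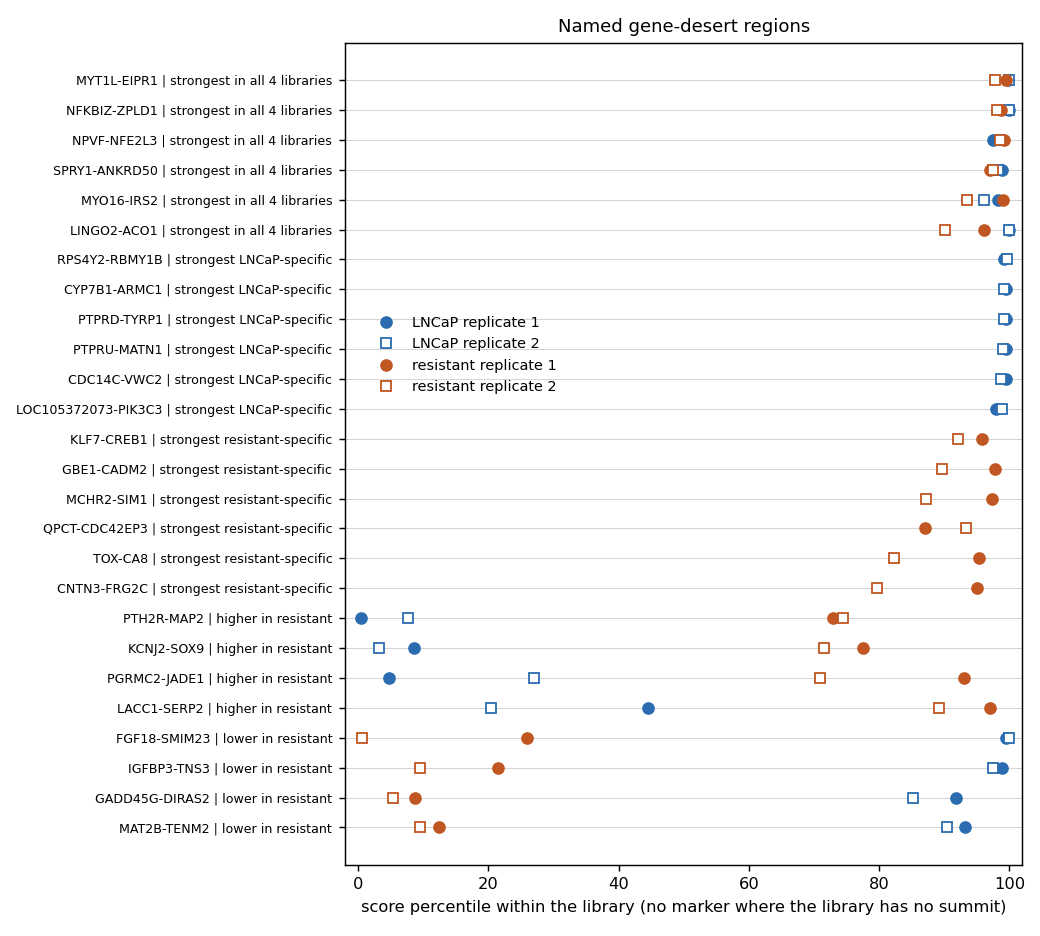
Score percentile within each library (0 to 100, LNCaP in blue, resistant cells in orange, replicate 1 filled, replicate 2 open) of the 26 named gene-desert regions, each labelled by the protein-coding genes on either side, with no marker where a library has no summit. The strongest shared and LNCaP-specific regions sit above 90, the resistant-specific ones spread from 79.7 to 97.9, and the 8 regions below them are the largest differences either way.

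A gap between 2 neighbouring protein-coding genes can hold many desert regions, and 1095 gaps held at least 1. LNCaP-specific regions lay in 801 gaps, resistant-specific ones in 272 and shared ones in 488, and 225 gaps held both specific kinds. The gap between PTPRU and MATN1 on chromosome 1 held most, 65 regions, with a summit at 40 and 43 of them in LNCaP and at 11 and 3 in the resistant cells. The gap between TENM4 and FAM181B on chromosome 11 had the most LNCaP-specific regions, 27 of 58, and 1 resistant-specific region. Summits were present there at 44 and 44 regions in LNCaP and at 8 and 5 in the resistant cells. The gaps between NUDT12 and EFNA5, an ephrin ligand, and between LRRC4C and API5 had 24 of 52 and 20 of 39 LNCaP-specific regions. Those between LOC105372073 and PIK3C3 and between IGFBP7 and LOC124900173 had 25 of 58 and 23 of 52. Gaps chosen for LNCaP-specific regions lean to LNCaP by that choice, as each such region adds to the LNCaP counts only.

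The gap between AGA and TENM3 on chromosome 4 went the other way. It held the most resistant-specific regions, 5 of 20, with no LNCaP-specific region, and all 6 of its regions of both LNCaP libraries were shared. Summits were present at 8 and 7 of its regions in LNCaP and at 18 and 12 in the resistant cells, although those lists are shorter. The gap between KLHL1 and DACH1, a transcription factor gene, on chromosome 13 held 4 resistant-specific regions and 1 LNCaP-specific region, with summits at 4 and 5 regions in LNCaP against 11 and 9. The gap between EYS and ADGRB3 on chromosome 6 had summits at 5 and 7 regions against 8 and 9. The gap between RGS17 and OPRM1, the mu opioid receptor, had 3 and 2 against 8 and 4. In each of these 4 gaps both resistant libraries lay above both LNCaP libraries. That order is partly built in, because the gaps of this paragraph were chosen for their number of resistant-specific regions. Each such region adds to both resistant counts and to neither LNCaP count. The gap between CDH2, which encodes N-cadherin, and DSC3 had 11 and 11 against 12 and 7, and its groups overlapped.

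Recovery varied between gaps. Among 132 gaps with at least 10 regions of both LNCaP libraries, the median share found in both resistant libraries was 20%, the highest was 70% (7 of 10, between LINGO2 and ACO1), and 13 gaps had none. These gaps were singled out after their values were seen. The largest of the 13 was between MKI67, the proliferation marker Ki-67, and MGMT, a DNA repair enzyme, on chromosome 10, with 0 of 20 regions found and summits at 31, 26, 3 and 0 of its 39 regions in LNCaP replicates 1 and 2 and resistant replicates 1 and 2. Summits within 3 kb of the ends of both flanking genes were present in all 4 libraries, at percentiles of 73.1, 81.2, 81.4 and 78.9 for MKI67 and 78.8, 70.8, 84.7 and 48.2 for MGMT. The gap on chromosome 5 that ends at IRX2 had 0 of 15 found, with summits at 27, 21, 2 and 0 of 35 regions.

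Deserts beside developmental transcription factors had the lowest recovery of the 3 gene lists examined. A region belonged to a list when either gene that flanks its gap was on it. Of 198 regions of both LNCaP libraries beside such factors, 11.1% were found in both resistant libraries, against 19.6% for the rest of the deserts at the same percentiles. Beside genes of cell adhesion and synapses it was 20.7% of 208, against 19.95%. Beside genes of the prostate and neuroendocrine lineages it was 23.5% of 81, against 19.98%. Over all desert regions it was 20.99%. No test was run on the lists.

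Several Iroquois genes, transcription factors that pattern embryonic tissues, contributed to the low value. Beside IRX2, 0 of 19 regions of both LNCaP libraries were found, with summits at 37 and 30 of 51 desert regions in LNCaP and at 5 and 0 in the resistant cells. Between IRX3 and IRX5 it was 0 of 10, with 13 and 13 regions against 6 and 1. Summits near the ends of IRX2, IRX3 and IRX5 themselves were present in all 4 libraries, at percentiles of at least 71.1. IRX1 differed from its neighbour, with 2 of 10 found.

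SOX11, a factor of neuronal progenitors, flanked the most desert regions of this list, 55, of which 47 and 35 had a summit in LNCaP and 13 and 3 in the resistant cells. Beside it, 2 of 31 regions of both LNCaP libraries were found. Beside SALL3, a zinc finger factor, it was 1 of 18, and beside BCL11B, a factor of lymphocytes and neurons, 0 of 11. At the ends of SALL3 the summit percentiles were 89.1 and 85.3 in LNCaP and 53.0 in resistant replicate 1, and resistant replicate 2 had no summit. Exceptions within the list were SATB1, a chromatin organiser, with 3 of 6 found, and SOX4, with 2 of 5.

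The lineage genes differed from each other. FOXA2, a pioneer factor of neuroendocrine prostate cancer, flanked 10 desert regions, with a summit at 10 and 8 of them in LNCaP and at 0 and 0 in the resistant cells. A summit near the ends of FOXA2 itself was present in all 4 libraries, at 45.3, 22.6, 58.5 and 10.6. PROX1, a homeodomain factor, flanked 2 regions, with a summit at 2 and 1 of them in LNCaP and at 0 and 0 in the resistant cells. Near the ends of PROX1 the only summit was in resistant replicate 1, at a percentile of 4.81.

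MYC, on the edge of a desert on chromosome 8, flanked 30 regions, present at 21 and 18 against 8 and 6, with 2 of 15 found. SOX9 flanked 29 regions, present at 19 and 22 against 13 and 7, with 4 of 17 found and 3 resistant-specific regions. SOX2, a stem cell factor, had 4 of 11 found, and POU3F2, a neural factor, also 4 of 11. ETV1, an ETS factor of prostate cancer, had 9 and 8 against 10 and 5, and its groups overlapped.

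Among the adhesion genes, SLITRK1, which encodes a synaptic membrane protein, flanked 47 regions, present at 32 and 32 against 20 and 14, with 8 of 23 found. CDH9 and CDH10, a pair of neighbouring cadherins, flanked 45 and 32, with 4 of 24 and 3 of 21 found. CADM2 flanked 36 regions, present at 27 and 22 against 12 and 9, with 5 of 17 found. Beside ROBO1, an axon guidance receptor, it was 0 of 13, and beside PCDH10 0 of 12.

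Desert regions near each other were compared by class. Of 2669 pairs of neighbours within 10 kb, both members were shared, LNCaP-specific or resistant-specific in 615. They were of the same class in 368 (59.8%), which comprised 311 LNCaP-specific, 49 shared and 8 resistant-specific pairs. Outside deserts 48.7% of 21016 such pairs were of the same class. The mix of classes differs between deserts and the rest, and its part in these shares was not tested. In 50 pairs 1 member was LNCaP-specific and the other resistant-specific. Summits of 1 region lie near each other by construction, as overlapping windows were joined. Offsets between libraries were taken in 4357 of 4530 desert regions of both LNCaP libraries and in 1402 of 1457 of both resistant libraries. Between LNCaP and resistant libraries of the same replicate number they were taken in 1734 of 1809 and 1017 of 1066. The median offset was 21 bp between the LNCaP libraries, 23 bp between the resistant libraries, and 22 and 31 bp between LNCaP and resistant libraries of the same replicate number, with 20 to 27 bp for other regions.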

How the data were processed

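For each of the 4 libraries the authors deposited the positions of ATAC-seq peak summits, scored on the −log10 scale of a p-value or a q-value. Which of them it is, and the peak threshold, is not given in the sources used here. The submitters' processing notes name Bowtie2 2.2.5, SAMtools 1.6 and MACS2 2.2.6 and the build hg38. Peaks were called per library. Groups were taken from the sample titles. Between 48 and 131 summits per list outside chromosomes 1 to 22, X and Y were left out.

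Summits were placed relative to 59679 genes (20037 protein-coding) of the RefSeq table of GRCh38.p14, with Python 3.11.15, pandas 2.3.3 and SciPy 1.17.1. That table can place genes of alternate sequences on their chromosome. A score percentile is the percent of a list with an equal or lower score. A region belonged to a cell type when both of its libraries had a summit in it. Per-library values were compared by an exact permutation test. Recovery of LNCaP regions has no LNCaP counterpart, so no test was made on it. Regions are not replicates, and counts over them have none. Wilson intervals (95%) cover counting error only. The steps were tested on simulated summits.

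Named regions were the 6 of highest mean percentile in all 4 libraries, LNCaP only and resistant cells only, and the 4 largest differences each way among shared regions without overlap of the groups. Named gaps were the 5 with most desert, LNCaP-specific and resistant-specific regions, and those beside listed genes. The members and lists were chosen with earlier results of these data known. The labels give a batch, repeat1 or repeat2, that matches the replicate number. Deviations of same-numbered libraries from their group means correlated at -0.0121. With 2 libraries per group this value is the same for both numbers by construction. Alternatives covered the window, the distances, the score minimum, list length, each library left out, the membership rule, the comparator and the bins. Sequence content was not analysed here.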

Additional observations from a re-analysis of the deposited data

How the results depend on the processing

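The desert share, the desert percentile, recovery, its unmatched difference and the matched gap from LNCaP to resistant cells changed direction under none of the alternatives run on them. The replicate gap from resistant replicate 2 to 1 (0.531 points) was -1.75 at equal length and -0.353 against the regions at 20 to 100 kb. The shares by distance and by chromosome, gaps between genes, gene lists, neighbours and summit offsets were not recomputed under alternatives. Neither were summit density, the shares within the top 10%, the absent shares of the strongest regions and the percentiles by class. Gaps between single libraries of different cell types were not recomputed at equal length. The ranks of shared regions were recomputed at equal length only, after the data were seen. The percentile of desert summits relative to others stayed within the spread between replicates under all 13 alternatives. The other values below moved by more than that spread, or by more than 1.5 times for counts, and the spread of the gap between the resistant libraries (0.106 points) and of the unmatched difference in recovery (-16.9 points) was small. The matched gap (-11.4 points) and the unmatched difference were -9.31 and -14.1 with windows of 100 bp, -11.9 and -18.2 with 500 bp, -10.8 and -16.3 with deserts from 50 kb, -10.2 and -16.1 from 200 kb, -11.6 and -18.1 with other genes 50 kb away, -17.5 and -21.8 with a score of at least 10, -19.7 and -23.2 with lists of equal length, and -8.56 and -14.5 when 1 library sufficed. With 5 bins the gap was -11.8. With the comparator at 20 to 100 kb, added after the data were seen, it was -7.62, and -12.3 with equal lengths as well. With the replicate block, pairing libraries of the same number, it was -10.1 and the unmatched difference -15.3, and the block changed no direction.

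The difference in desert share (-1.47 points) was -1.95 from 50 kb, -0.834 from 200 kb, -0.820 with other genes 50 kb away and -0.549 at equal length. Shared and LNCaP-specific counts were 615 and 1823 from 200 kb. Shared, LNCaP-specific and resistant-specific counts were 500, 1663 and 217 with other genes 50 kb away, 330, 1287 and 142 with a score of at least 10, and 2061, 5661 and 1258 when 1 library sufficed. At equal length the shared and LNCaP-specific counts were 475 and 809, and recovery was 32.8%. A stricter distance rule or score minimum leaves fewer regions by construction.

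Leaving out 1 library at a time gave 990 to 1559 shared, 2970 to 4643 LNCaP-specific and 406 to 1163 resistant-specific regions. Recovery ranged from 16.1% to 34.4%, the unmatched difference from -16.9 to -14.6 and the matched gap from -11.4 to -9.95. The highest counts of shared and resistant-specific regions came without resistant replicate 2, the shortest list, and the highest LNCaP-specific count without LNCaP replicate 2. Without a read count, depth is unknown, and absence of a summit cannot be told apart from a weak signal below the peak threshold.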
